A study of Homo sapiens with 12 samples.

Results

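ANKRD36, ANKRD36B, ANKRD36C, GOLGA8A and GOLGA8B are 5 genes from 2 families of recently duplicated human genes. They are 5 of the 26334 genes of the count table, and all 5 passed the filter on low counts that left 12775 genes. They were chosen by symbol, as near-identical copies whose counts were seen to be higher after transcription was blocked in these same libraries, so every change over time of these genes is a description and carries no test. On TMM-scaled counts, which set the bulk of the genes level between libraries, the 3 ANKRD36 copies were 2.62-fold to 3.65-fold higher at 4 h than at 0 h, and most of that difference appeared after 1 h. On the same scaling GOLGA8B was 1.86-fold and GOLGA8A 2.22-fold higher at 4 h, and 79.4% and 78.3% of that log2 difference was already present at 1 h. These shares depend on the scaling. Scaled instead to ribosomal protein mRNAs, the GOLGA8A log2 change was 0.91 at 1 h and 0.78 at 4 h, and that of GOLGA8B 0.72 and 0.53.

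The cells, called shA673-1c, derive from the Ewing sarcoma line A673 and carry an inducible short hairpin RNA directed at the fusion transcript EWS::FLI1. Every library carried that hairpin and came from cells given doxycycline at 1 µg per ml for 4 days, so no group in these libraries lacks the knockdown. Actinomycin D, which blocks transcription, was then added at 5 µM, and polyadenylated RNA was taken at 0, 1, 2 and 4 h from 3 biological replicates each, per the labels. The line is a single derivative, so the 12 libraries describe these cells only and p-values measure the spread between these replicates.

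ANKRD36 genes encode proteins with ankyrin repeats, short helical modules known in many proteins for binding other proteins. Their own cellular function is poorly characterised. GOLGA8 genes belong to the golgin family, whose founding members are long coiled-coil proteins that tether vesicles at the Golgi apparatus. The GOLGA8 genes lie in segmental duplications of chromosome 15 and are primate-specific relatives of GOLGA2, which encodes the cis-Golgi golgin GM130. While transcription is blocked, mRNAs decay at different speeds, and a library of fixed size gives a growing share to those that decay slowest.

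Copies of such genes share long stretches of sequence, so the question of which reads can be told apart comes before any value. Sequences were read from GENCODE 29 transcripts on build GRCh38, while the submitters' processing notes name hg19, and they describe the genes rather than the reads of these cells. GOLGA8A and GOLGA8B lie on the minus strand of chromosome 15. Of 13 GOLGA8A coding exons of at least 60 bases, 12 had an exon of the same length in GOLGA8B within a difference of 15%, and all 12 were identical over 1474 bases. The longest of these exons of up to 150 bases is shown because its 144 bases carry no position that sets the copies apart; it is a coding exon in both genes, at chr15:34382386-34382529 in GOLGA8A and chr15:34528607-34528750 in GOLGA8B. Capitals in all sequences here mark positions where the copies do not all carry the same base, so lower case throughout means identity.
GOLGA8A: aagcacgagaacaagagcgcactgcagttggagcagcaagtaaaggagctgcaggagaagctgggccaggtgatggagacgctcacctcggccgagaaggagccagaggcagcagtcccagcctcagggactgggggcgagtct
GOLGA8B: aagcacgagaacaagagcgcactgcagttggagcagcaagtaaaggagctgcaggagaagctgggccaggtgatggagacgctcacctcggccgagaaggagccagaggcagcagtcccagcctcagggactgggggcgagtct

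ANKRD36 copies lie on chromosome 2 and differ more. Exons were matched by the same rule, each to the most alike exon of its length in the copy. The identities therefore cover matched exons only. Of 47 ANKRD36 coding exons, 37 had a match in ANKRD36B. Over these, 108 of 4201 compared bases differed, an identity of 97.4%, and 8 exons were identical. In ANKRD36C, 43 of the 47 had a match, 133 of 4597 bases differed (97.1%) and 6 matched exons were identical. Of 29 ANKRD36B coding exons, 26 had a match in ANKRD36C, where 76 of 3397 bases differed (97.8%). Among coding exons of 100 to 150 bases present in all 3 copies, the one with the most differences shows what a read needs to cover to be placed. It has 138 bases and 11 differing positions, at chr2:97124460-97124597 on the plus strand in ANKRD36, chr2:97578906-97579043 on the minus strand in ANKRD36B and chr2:95980648-95980785 on the minus strand in ANKRD36C.
ANKRD36: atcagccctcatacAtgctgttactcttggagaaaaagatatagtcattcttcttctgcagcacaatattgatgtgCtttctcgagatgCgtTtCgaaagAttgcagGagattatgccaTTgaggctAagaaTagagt
ANKRD36B: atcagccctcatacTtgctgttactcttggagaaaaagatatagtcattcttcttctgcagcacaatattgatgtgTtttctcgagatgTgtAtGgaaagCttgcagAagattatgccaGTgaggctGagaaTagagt
ANKRD36C: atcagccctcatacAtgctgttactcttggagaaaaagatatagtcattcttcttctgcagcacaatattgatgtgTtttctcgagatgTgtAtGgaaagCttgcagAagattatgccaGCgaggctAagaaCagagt

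At the other end of that range is a coding exon of 142 bases that is identical in all 3 copies, at chr2:97233730-97233871 on the plus strand in ANKRD36, chr2:97523326-97523467 on the minus strand in ANKRD36B and chr2:95867440-95867581 on the minus strand in ANKRD36C. It is shown because a read from within it fits each of the copies equally.
ANKRD36: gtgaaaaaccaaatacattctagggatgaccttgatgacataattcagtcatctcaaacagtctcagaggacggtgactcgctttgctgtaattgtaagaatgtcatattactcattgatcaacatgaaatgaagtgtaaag
ANKRD36B: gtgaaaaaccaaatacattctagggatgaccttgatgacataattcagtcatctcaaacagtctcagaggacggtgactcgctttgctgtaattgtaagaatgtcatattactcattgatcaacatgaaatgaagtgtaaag
ANKRD36C: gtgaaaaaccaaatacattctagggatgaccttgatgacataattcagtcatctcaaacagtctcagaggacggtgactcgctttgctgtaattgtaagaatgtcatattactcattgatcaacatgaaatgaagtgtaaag

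How much of each gene can be told apart was measured by cutting every annotated transcript of the 5 genes into windows of 75 bases and searching all 206694 GENCODE transcripts for them on the sense strand. For ANKRD36, 64.0% of 9822 windows occurred in no other gene. ANKRD36C had the largest such share of the 5 genes, 76.8% of 8339 windows, and ANKRD36B had 59.8% of 7046. For GOLGA8A the share was 38.0% of 6889 windows and for GOLGA8B 42.7% of 7954. The gap between the families was widest within the coding sequence, where 9.36% of GOLGA8A windows and 10.0% of GOLGA8B windows were unique to the gene, against 47.6% to 74.3% in the ANKRD36 copies. Outside coding sequence and retained introns, which takes in the untranslated exon sequence, the shares were 60.7% and 63.4% in the GOLGA8 copies and 78.6% to 95.9% in the ANKRD36 copies. Retained-intron transcripts are annotated for all 5 genes, 3 for ANKRD36, 2 each for ANKRD36B and ANKRD36C, 1 for GOLGA8A and 3 for GOLGA8B. Windows found only in those transcripts were unique to ANKRD36B in 7.05% of cases and to ANKRD36C in 81.7%. Shared windows lay mostly within the families: 62.0% of GOLGA8A windows occurred in GOLGA8B, and 11 occurred in GOLGA8N. Outside the 5 genes, 289 GOLGA8B windows occurred in AC025678.3. In ANKRD36BP2, 149 windows of ANKRD36, 93 of ANKRD36B and 106 of ANKRD36C occurred. The read length was not given in the sources used here. With windows of 50 bases the GOLGA8A share was 31.0% and with 100 bases 43.3%, and for ANKRD36C the values were 63.3% and 84.3%.

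**Figure D1:**
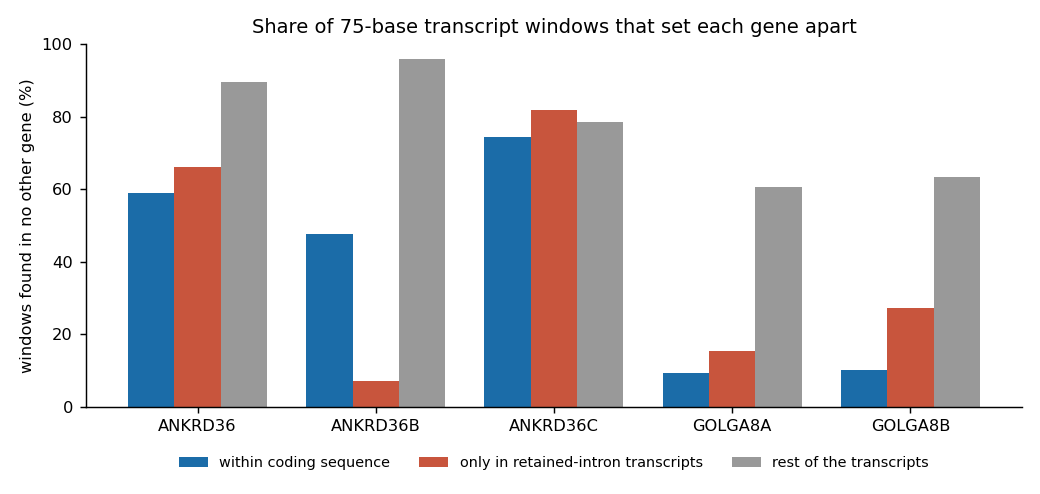
Share of 75-base transcript windows found in no other gene (vertical axis, %) for each of the 5 genes, split into windows within coding sequence (blue), windows only in retained-intron transcripts (red) and the rest (grey). The coding bars of GOLGA8A and GOLGA8B stand near 10%, the lowest coding bars of the plot.

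One group of genes in the same table bears on how reads that fit 2 places were counted; it was looked at after the values had been seen. Of 18 protein-coding genes that GENCODE annotates as identical copies on X and Y, 17 were listed at 0 in all 12 libraries (94.4%) and SPRY3, the other, had 1 count in all libraries together. Over the whole table, 7175 genes or 27.2% had no count in any library. CD99, the surface antigen used to recognise Ewing sarcoma, is among those at 0. The program that counted the reads and its handling of reads with several placements are not given in the sources used here, and their part in the levels of the 5 genes was not tested. The values below are therefore the counts assigned to each symbol, and a count of one copy could hold reads of another or lack reads that fit both.

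Library totals lay between 9381855 and 10929000 counts, and no library pair was identical. FLI1, whose symbol also takes reads of the fusion transcript targeted by the hairpin, stood at 19.8, 19.9 and 21.7 CPM (counts scaled by edgeR to libraries of equal size, on TMM-scaled totals) at 0 h and fell to between 7.01 and 8.16 at 4 h. Its log2 change was -1.46 (SE 0.20, edgeR adjusted p = 7.016e-05); adjusted p-values here are by Benjamini-Hochberg over all tested genes, and a gene is called higher or lower when its adjusted p is under 0.05. EWSR1, the partner gene of the fusion, had a log2 change of 0.33 (SE 0.11, edgeR adjusted p = 0.02604). That value is on TMM scaling only. Scaled to ribosomal protein mRNAs, the median of all tested genes at 4 h was -0.32 in place of 0.05. Of the Ewing sarcoma markers CCND1, STEAP1, FLI1, PRKCB, NR0B1, NKX2-2 and CD99, all but CD99 had counts in every library. Summed markers of blood were 8.48 to 26.3 CPM, nearly all HBB, while PTPRC stayed at or below 0.377 CPM and CD3E at 0. Markers of epithelium, endothelium and liver summed to at most 4.45 CPM for any type. The table held no external standard, so all changes are relative to the rest of the mRNA, and in bulk RNA fewer cells and less RNA per cell cannot be told apart.

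ANKRD36 had the highest fold of the 5 genes. Its level was 7.65, 3.68 and 4.41 CPM in replicates 1, 2 and 3 at 0 h, from 81, 39 and 50 counts. At 1 h it was 7.45, 5.75 and 8.43 CPM, at 2 h 10.1, 11.3 and 11.7 CPM, and at 4 h 19.5, 19.5 and 18.5 CPM. The 3 libraries of 2 h lay above all of 0 h and 1 h, and those of 4 h above all earlier ones, while 0 h and 1 h overlapped. Mean levels were 5.24 ± 2.11, 7.21 ± 1.36, 11.04 ± 0.841 and 19.1 ± 0.590 CPM (SD, n = 3). The fitted log2 change against 0 h was 0.46 (SE 0.23) at 1 h, 1.07 (SE 0.22) at 2 h and 1.87 (SE 0.22) at 4 h, which is 3.65-fold. Only 5 of the 12775 tested genes had a larger log2 change at 4 h. The spread at 0 h came from replicate 1: the coefficient of variation was 40.3%, 3.04 times what counting error alone gives, whereas at 4 h it was 3.08%. Without that library the log2 change at 4 h was 2.24 and that at 1 h was 0.85; without replicate 3 at every time the 1 h value was 0.21.

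ANKRD36C, the copy with the most sequence of its own, followed ANKRD36 closely. It stood at 9.73, 5.84 and 6.79 CPM at 0 h, 11.1, 7.73 and 11.5 CPM at 1 h, 12.3, 12.04 and 14.8 CPM at 2 h and 22.3, 27.5 and 25.7 CPM at 4 h. As in ANKRD36, replicate 1 was the highest library at 0 h and replicate 2 the lowest at 0 h and 1 h, the libraries of 0 h and 1 h overlapped, and from 2 h on each time point lay above all earlier ones. The log2 change was 0.44 (SE 0.20) at 1 h, 0.81 (SE 0.20) at 2 h and 1.76 (SE 0.19) at 4 h, which is 3.38-fold and ranked just below ANKRD36 among all tested genes. Per replicate the 4 h change was 1.20, 2.23 and 1.92, against 1.35, 2.404 and 2.07 in ANKRD36, so the replicates took the same order in both genes. Its 1 h value was 0.69 without 0 h replicate 1 and 0.26 without replicate 3 at every time.

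ANKRD36B had the lowest counts and the latest difference. Its levels were 5.10, 4.81 and 3.79 CPM at 0 h and 4.97, 2.92 and 6.26 CPM at 1 h. Those 1 h values, from 48, 31 and 72 counts, enclosed the whole range of 0 h. They were followed by 7.54, 6.58 and 6.09 CPM at 2 h and 10.9, 14.5 and 10.5 CPM at 4 h. The libraries of 2 h lay above all of 0 h but overlapped those of 1 h, and those of 4 h lay above all others. The log2 change was 0.05 (SE 0.25) at 1 h, a value whose sign depended on single libraries and ran from -0.34 to 0.34 when libraries were left out. It was 0.56 (SE 0.24) at 2 h and 1.39 (SE 0.23) at 4 h, which is 2.62-fold.

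GOLGA8A took another course. Its level was 11.4, 11.97 and 10.8 CPM at 0 h and 20.1, 20.3 and 23.6 CPM at 1 h, a step that separated all libraries of the 2 times. It stayed at 19.9, 21.5 and 20.7 CPM at 2 h, within the range of 1 h or just below it, and reached 24.6, 25.5 and 25.98 CPM at 4 h, above all earlier libraries. The means were 11.4 ± 0.567, 21.3 ± 1.96, 20.7 ± 0.833 and 25.4 ± 0.707 CPM (SD, n = 3), the narrowest relative spread of the 5 genes at each time. Fitted log2 changes were 0.90 (SE 0.09) at 1 h, 0.86 (SE 0.09) at 2 h and 1.15 (SE 0.09) at 4 h, or 2.22-fold.

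GOLGA8B had the same early step, but not the later separation of 4 h from 1 h and 2 h. It stood at 13.3, 15.7 and 12.8 CPM at 0 h, 21.7, 20.4 and 26.3 CPM at 1 h, 25.3, 23.8 and 21.0 CPM at 2 h and 27.8, 23.9 and 26.2 CPM at 4 h. All libraries of 1 h, 2 h and 4 h lay above all of 0 h, and those 3 later times overlapped one another. Replicate 3 was the highest library at 1 h in both GOLGA8 copies, as it was in all of the 5 genes. The log2 change was 0.71 (SE 0.13) at 1 h, 0.74 (SE 0.13) at 2 h and 0.90 (SE 0.13) at 4 h, which is 1.86-fold and the smallest of the 5 genes. Per replicate the 4 h change was 1.06, 0.61 and 1.04 in GOLGA8B and 1.11, 1.09 and 1.26 in GOLGA8A, so replicate 2 was the lowest in both.

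**Figure D2:**
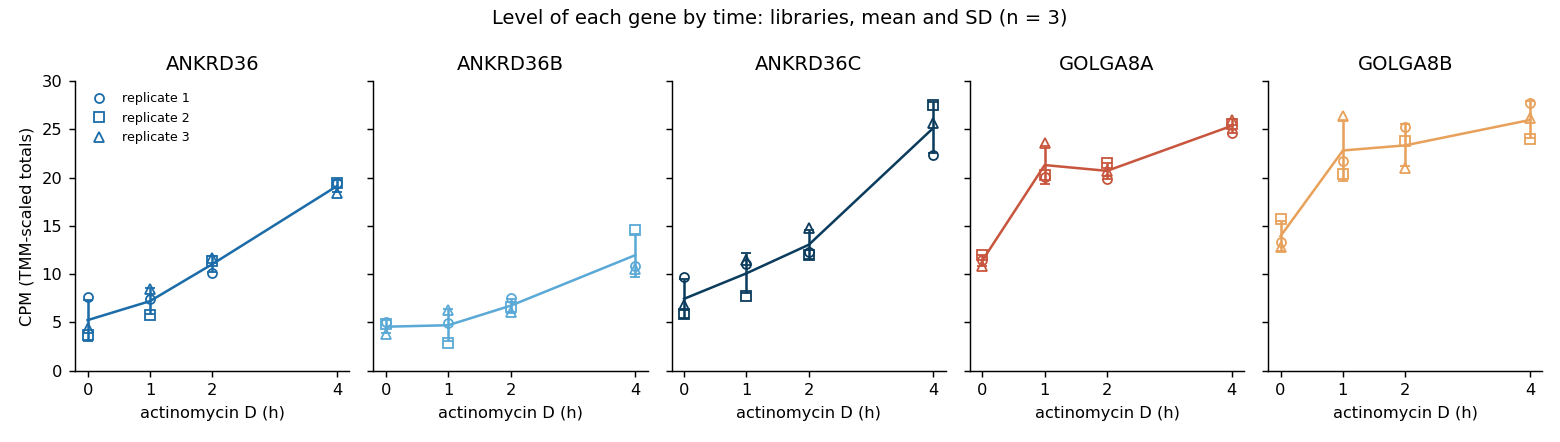
Level of each of the 5 genes (vertical axis, CPM on TMM-scaled totals) against hours of actinomycin D (horizontal axis), with 1 symbol per replicate, the line through the means and bars of 1 SD (n = 3). The ANKRD36 copies climb mainly after 1 h, and the GOLGA8 copies step up between 0 and 1 h and change less afterwards.

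Counted by overlap, 2 of 5 genes, both GOLGA8 copies, had all 3 libraries of 1 h above all 3 of 0 h, a separation that 4.45% of the tested genes had. At 2 h it was 5 of 5, against 13.3% of the tested genes, and at 4 h 5 of 5, against 27.9%. Between 1 h and 2 h, ANKRD36 and ANKRD36C were separated upward and the other 3 genes were not, against 10.6% of the tested genes. Between 2 h and 4 h all but GOLGA8B were separated upward, against 18.1%. These counts describe genes that were selected on the same libraries, and nothing is read from their excess over the background.

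Taken interval by interval, the log2 change from 1 h to 2 h was 0.61 (SE 0.22) in ANKRD36, 0.51 (SE 0.24) in ANKRD36B and 0.37 (SE 0.19) in ANKRD36C. Over the same hour it was -0.04 (SE 0.09) in GOLGA8A and 0.03 (SE 0.12) in GOLGA8B, so neither GOLGA8 copy moved by more than its standard error. From 2 h to 4 h the values were 0.79 (SE 0.20), 0.83 (SE 0.23) and 0.95 (SE 0.18) in ANKRD36, ANKRD36B and ANKRD36C, and 0.29 (SE 0.09) and 0.15 (SE 0.12) in GOLGA8A and GOLGA8B. Set among the 12775 tested genes, GOLGA8A ranked 47 at 1 h and 87 at 4 h by log2 change, and GOLGA8B 105 and 190. The ANKRD36 copies moved the other way in that order, from 314 to 6 for ANKRD36, from 351 to 7 for ANKRD36C and from 3406 to 32 for ANKRD36B.

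The families differed in when their counts grew. Summed over the 3 copies, the ANKRD36 counts at the successive times were 17.3 ± 4.53, 22.0 ± 5.04, 30.8 ± 1.504 and 56.3 ± 4.62 CPM (SD, n = 3). Summed over both copies, the GOLGA8 counts were 25.4 ± 2.12, 44.1 ± 5.04, 44.0 ± 2.08 and 51.3 ± 1.62 CPM. Such sums are less exposed than single genes to how reads were divided among the copies, although reads that were dropped for fitting several copies stay missing. In log2 units, averaged over the replicate numbers, the ANKRD36 sum was 0.35 ± 0.40 higher at 1 h, 0.87 ± 0.39 at 2 h and 1.73 ± 0.45 at 4 h. For the GOLGA8 sum the differences were 0.80 ± 0.27, 0.80 ± 0.08 and 1.02 ± 0.16. From 2 h to 4 h alone, on TMM-scaled totals, the ANKRD36 sum grew by 0.87 ± 0.15 in log2 and the GOLGA8 sum by 0.22 ± 0.10. All 3 replicates were higher in both sums. With TMM, the share of the 4 h log2 change already present at 1 h was 24.8% in ANKRD36, 3.89% in ANKRD36B and 24.97% in ANKRD36C. It was 78.3% in GOLGA8A and 79.4% in GOLGA8B. The shares of ANKRD36 and ANKRD36C depended on single libraries. Without 0 h replicate 1 their log2 changes were 0.85 and 0.69 at 1 h, and 2.24 and 1.995 at 4 h. In that fit ANKRD36B had 0.15 at 1 h and 1.48 at 4 h. GOLGA8A and GOLGA8B had 0.91 and 0.69 at 1 h, and 1.155 and 0.87 at 4 h. Without replicate 3 at every time, ANKRD36 and ANKRD36C had 0.21 and 0.26 at 1 h.

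**Figure D3:**
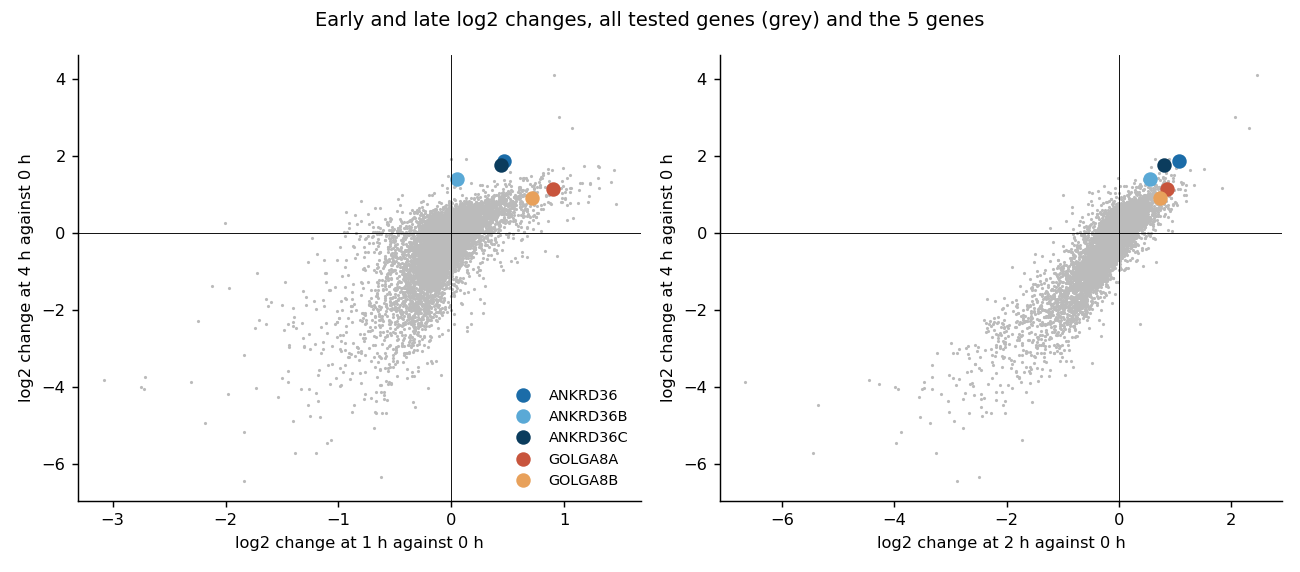
Fitted log2 change at 4 h against 0 h (vertical axis) plotted against that at 1 h (left) and at 2 h (right), for all 12775 tested genes (grey points) and the 5 genes (coloured). In the left panel the ANKRD36 copies lie at 4 h changes of 1.39 to 1.87 and 1 h changes of 0.05 to 0.46. GOLGA8A and GOLGA8B lie to the right, at 1 h changes of 0.90 and 0.71. Grey points also lie near the ANKRD36 copies, such as MALAT1 with 0.13 at 1 h and 1.93 at 4 h.

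Ratios of counts within a library do not depend on how libraries were scaled. The ratio of summed ANKRD36 to summed GOLGA8 counts was 0.908, 0.517 and 0.634 at 0 h and 0.562, 0.404 and 0.524 at 1 h. It was 0.664, 0.661 and 0.782 at 2 h and 1.01, 1.24 and 1.05 at 4 h. From 0 h to 1 h it went down in each replicate, and every 4 h library exceeded every earlier one. A ratio of this kind shows unequal change of both families and not which of them moved.

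Proportions within the families were also compared, without an estimate of their counting error. The mean ratio of GOLGA8A to GOLGA8B was 0.822 ± 0.0538, 0.938 ± 0.0519, 0.893 ± 0.1003 and 0.981 ± 0.0904 in the order of the times, and the 4 h libraries, 0.886 to 1.07, lay above those of 0 h, 0.761 to 0.858. ANKRD36 to ANKRD36C was 0.688 ± 0.0856, 0.717 ± 0.0387, 0.850 ± 0.0802 and 0.766 ± 0.0926, with overlap between 0 h and 4 h. ANKRD36B to ANKRD36C was 0.635 ± 0.163, 0.457 ± 0.0841, 0.523 ± 0.102 and 0.475 ± 0.0607, again with overlap between 0 h and 4 h, and replicate 2 was highest at 0 h, at 0.823. ANKRD36B to ANKRD36 was 0.945 ± 0.329, 0.639 ± 0.119, 0.616 ± 0.118 and 0.625 ± 0.106, where the 0 h libraries spread from 0.667 to 1.31 and overlapped each later time. As shares of the family's counts, ANKRD36B went from 27.2% ± 5.67 to 21.2% ± 2.25, ANKRD36 from 29.7% ± 4.195 to 34.1% ± 2.70 and ANKRD36C from 43.1% ± 2.26 to 44.7% ± 2.31 between 0 h and 4 h (SD, n = 3). The levels of different genes are not ordered here, since the counts are not per length and the annotation behind them is not given.

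**Figure D4:**
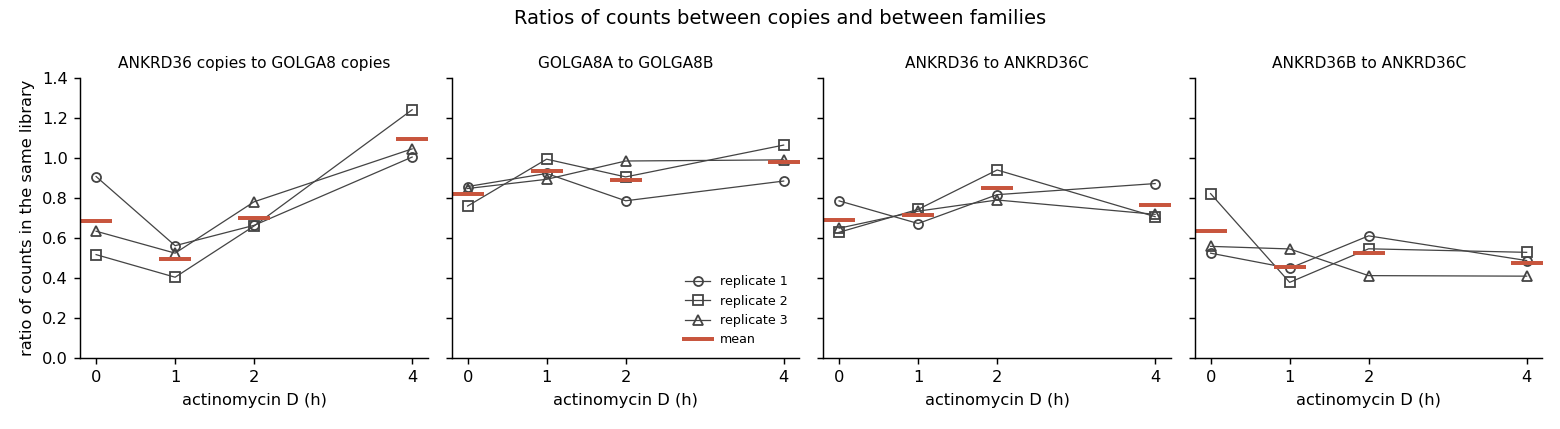
Ratio of counts in the same library (vertical axis) against hours of actinomycin D for ANKRD36 copies to GOLGA8 copies, GOLGA8A to GOLGA8B, ANKRD36 to ANKRD36C and ANKRD36B to ANKRD36C. Symbols and thin lines are the 3 replicates and red bars their mean; the first panel ends between 1.01 and 1.24 at 4 h, above its earlier values.

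The 5 genes were also ordered by likeness over the 12 libraries, measured as Pearson's r of log2 CPM and given as a description, since all points share the same time course and libraries. ANKRD36 and ANKRD36C were each other's closest gene among the 12774 others (r = 0.980). GOLGA8A was the closest gene to GOLGA8B, and GOLGA8B ranked 2 for GOLGA8A (r = 0.957). ANKRD36B was looser: ANKRD36C ranked 16 for it (r = 0.911) and ANKRD36 ranked 51 (r = 0.886). Between the families r ran from 0.632 to 0.796.

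Outside the families, the genes most like ANKRD36 were DIAPH1 (r = 0.973), ANAPC5 (0.966) and CHD1L (0.966). DIAPH1 encodes a formin that nucleates actin filaments, and ANAPC5 a subunit of the anaphase-promoting complex. For ANKRD36B they were MSRA (0.941), VAMP3 (0.926) and TMED4 (0.922), and for ANKRD36C TAF10 (0.973), CHD1L (0.969) and LRRC28 (0.963). These 8 genes shared the shape and not the size: their log2 changes at 4 h were 0.25 (DIAPH1) to 0.61 (LRRC28). GOLGA8A and GOLGA8B had the same neighbours, HSF4 (r = 0.952 and 0.947), a heat shock transcription factor gene, and MDM4 (0.951 and 0.936), which encodes a negative regulator of p53. HSF4 stood 0.98 higher in log2 at 1 h and 1.35 at 4 h, and MDM4 0.43 and 0.73. By Spearman's rho 3 of the 13 pairings named here were among the 10 closest genes of their member.

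The nearest relatives of both families were hardly measured. Of 45 listed relatives of ANKRD36 by symbol (among them ANKRD36BP2 and the ANKRD18, ANKRD20A, ANKRD26, ANKRD30, ANKRD62, POTE and CCDC144 genes), 22 had any count and 2 were tested. ANKRD36BP2 had at most 1 count in any library. ANKRD26, an ankyrin repeat gene related to the POTE genes, was 31.5 ± 2.90 CPM at 0 h and 24.3 ± 1.83 at 4 h, a log2 change of -0.37 (SE 0.14, edgeR adjusted p = 0.03934). That call was lost in 6 fits, without replicate 2 or 3 of 0 h, without replicate 1 or 2 of 4 h, and without replicate 1 or 2 at every time, where edgeR's adjusted p reached 0.1521. With the replicate block the ANKRD26 call held (edgeR adjusted p = 0.0001673). ANKRD18A had a log2 change of 0.04 (SE 0.32, edgeR adjusted p = 0.9376). Among all tested genes 23.3% were called higher and 24.6% lower at 4 h by the same test, and the median log2 change of all tested genes was 0.05. Of 30 relatives of GOLGA8 (other GOLGA8 genes and the GOLGA6 group), 14 had any count, none was tested, and no count in any library exceeded 14. Summed over the libraries of 0, 1, 2 and 4 h, GOLGA6L5P, the relative with the most counts, had 12, 22, 26 and 23, and GOLGA8N had 16, 22, 25 and 16.

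The genes listed as golgins and Golgi tethers were all measured. Of 19 tested, 2 were called higher and 7 lower at 4 h, against 23.3% and 24.6% of all tested genes, with a median log2 change of -0.07. With the replicate block 4 were called higher and 7 lower, where 4444 and 3934 of all 12775 tested genes were. GCC1, a golgin of the trans-Golgi network, fell from 28.9 ± 2.49 CPM at 0 h to 6.33 ± 1.23 CPM at 4 h, its log2 change being -2.19 (SE 0.15, edgeR adjusted p = 1.398e-07). TMF1 changed by -0.63 (edgeR adjusted p = 8.881e-05), GORAB by -0.90 (0.0003263) and GOLGA5 by -0.52 (0.001466). The 2 genes called higher, named after their values were seen, were GOLGA7 (0.31) and BICD2 (0.28), but neither call held with library totals, and scaled to ribosomal protein mRNAs the values were -0.07 and -0.10. GOLGA2, the gene closest in name and ancestry, had a log2 change of -0.07 (SE 0.07, edgeR adjusted p = 0.4211).

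Other genes named ANKRD share the repeat but not the recent duplication. Of 29 tested among 49 in the table, 5 were called higher and 11 lower, against 23.3% and 24.6% of all tested genes, with a median of -0.15. With the replicate block 6 were called higher and 14 lower, where 4444 and 3934 of all 12775 tested genes were. Without replicate 1, without replicate 2 or with library totals, 1 was called higher, where 1965, 1440 and 1347 of all tested genes were. ANKRD50 changed by -2.07 (edgeR adjusted p = 2.161e-09), ANKRD17 by -1.31 (3.527e-09) and ANKRD49 by -2.05 (2.546e-05), each lower in 3 of 3 replicates. ANKRD12, the next by adjusted p, changed by -0.81. Of the 5 called higher, ANKRD23, a muscle ankyrin repeat gene, had the largest log2 change, 1.11 from 2.55 ± 0.405 CPM (SE 0.20, edgeR adjusted p = 0.0006499); it was named after its values were seen.

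Genes of other families with many near-identical copies were listed by symbol (NPIP, NBPF, GUSBP, POM121, PMS2P, SMG1P, HERC2P, WASH, AGAP, LRRC37 and others). Of 48 tested among 136 in the table, 12 were called higher and 7 lower, to be read against the 23.3% and 24.6% of all tested genes, and the list's median was 0.29. Scaled to ribosomal protein mRNAs the counts were 5 and 11, where 157 and 5824 of all 12775 tested genes were called, and the median was -0.08, against -0.32 for all tested genes. With the replicate block, 18 were called higher and 8 lower, where 4444 and 3934 of all 12775 tested genes were. Without replicate 2 at every time the counts were 6 and 3, where 1440 and 2279 of all tested genes were called. The median was 0.14 with library totals, 0.17 without 4 h replicate 3 and 0.12 without replicate 3 at every time. By adjusted p the leading genes were NBPF1 (-0.71, edgeR adjusted p = 2.46e-05), the pseudogene GUSBP11 (1.42, 2.471e-05), POM121C (-0.78, 2.845e-05) and POM121 (-0.65, 3.795e-05), so the list moved in both directions. GUSBP11 went from 7.50 ± 1.64 to 20.1 ± 1.80 CPM. POM121 and POM121C, near-identical copies of a nuclear pore gene, both fell. Looked at after the values were seen, NPIPB3, NPIPB4, NPIPB5 and NPIPB15 of the nuclear pore complex interacting family were called higher, with log2 changes of 1.26, 1.18, 1.11 and 1.31. The call of NPIPB15 was lost without replicate 1 (edgeR adjusted p = 0.05327), and that of NPIPB5 without replicate 2 and with ribosomal protein scaling (edgeR adjusted p up to 0.1032). ANKRD36 and ANKRD36C had larger log2 changes than any of the 19 called genes, GUSBP11 exceeded ANKRD36B, and GUSBP11, NPIPB3, NPIPB4 and NPIPB15 exceeded both GOLGA8 copies.

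The last list held 25 transcripts described as kept in the nucleus or as retaining introns, all tested. Of these, 9 were called higher and 5 lower, against 23.3% and 24.6% of all tested genes, with a median log2 change of 0.08. With the replicate block 13 were called higher and 8 lower, where 4444 and 3934 of all 12775 tested genes were. Without replicate 1 or 2 at every time 3 were called lower, where 2586 and 2279 of all tested genes were. MALAT1, a nuclear long noncoding RNA, stood at 161 ± 13.6 CPM at 0 h and rose to 614 ± 111 at 4 h, by 1.93 on the log2 scale (SE 0.16, edgeR adjusted p = 9.194e-07) that is close to that of ANKRD36; its change was 0.13 at 1 h and 0.65 at 2 h, late like that of the ANKRD36 copies. GABBR1, called with 0.95 (edgeR adjusted p = 1.874e-05), was already 0.57 higher at 1 h, as the GOLGA8 copies were. CCNL2, a cyclin of the splicing machinery, changed by 0.74 (3.923e-05) and the nuclear paraspeckle RNA NEAT1 by 1.16 (5.439e-05). The 5 called lower, named after their values were seen, were SRSF5 (-0.73), RBM5 (-0.71), CLK1 (-0.62), SON (-0.22) and RBM39 (-0.17), so this list too moved in both directions. The calls of SON and RBM39 were both lost without replicate 1 or 2 at every time. Which part of the RNA of the 5 genes was spliced was not measured in these counts.

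**Figure D5:**
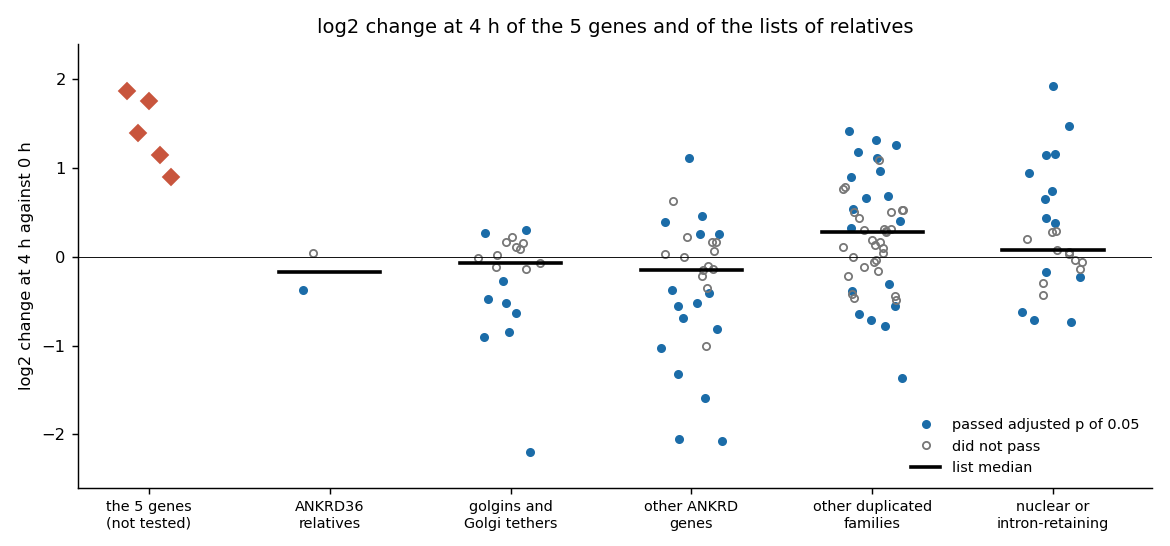
Fitted log2 change at 4 h against 0 h (vertical axis) of the 5 genes (red diamonds, from left ANKRD36, ANKRD36B, ANKRD36C, GOLGA8A, GOLGA8B, not tested) and of the tested genes of 5 lists, 1 point per gene. Filled points passed an edgeR adjusted p of 0.05, open points did not, and black bars are list medians, from -0.17 to 0.29.

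Scaling set the size of every value given as CPM or log2 change and the sign of none for the 5 genes at 4 h. With library totals in place of TMM, the median of all tested genes moved from 0.05 to -0.10, and the 4 h log2 changes were 1.72 for ANKRD36, 1.24 for ANKRD36B, 1.61 for ANKRD36C, 1.00 for GOLGA8A and 0.75 for GOLGA8B. Scaled to the summed counts of 86 ribosomal protein genes, whose mRNAs are long-lived in many cells, the median was -0.32 and the values were 1.495, 1.02, 1.38, 0.78 and 0.53 in the same order. At 4 h each of the 5 moved by about as much as the median of all genes did, and the ratios between the families are the same under all 3 scalings. The course of the GOLGA8 copies after 1 h did depend on scaling. With ribosomal protein scaling the log2 changes at 1, 2 and 4 h were 0.91, 0.72 and 0.78 in GOLGA8A and 0.72, 0.60 and 0.53 in GOLGA8B. With library totals they were 0.91, 0.80 and 1.00 in GOLGA8A and 0.72, 0.69 and 0.75 in GOLGA8B. Those of the ANKRD36 copies grew from each time to the next under all 3 scalings.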

How the data were processed

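Polyadenylated RNA was measured in 12 libraries of shA673-1c cells, 3 replicates at each of 4 times, with a stranded TruSeq mRNA kit per the labels. The deposited table held the authors' raw read counts per gene symbol. The submitters' processing notes name FastQC, STAR and hg19 and give no versions. The counting program, the annotation, the strand setting and the treatment of reads with several placements are not given in the sources used here.

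Counts were fitted with edgeR 4.0.16 in R 4.3.3 (limma 3.58.1) after filterByExpr and TMM, with time as a factor over all 12 libraries, quasi-likelihood tests and Benjamini-Hochberg adjustment over 12775 genes at 0.05. Each standard error is the size of the log2 change over the root of its F. Replicate number was not in this fit. Unless another fit is named, the standard errors and adjusted p-values given take no account of the pairing described below. The fit was also run on simulated counts with few changed genes, equally up and down, a single dispersion and no replicate effect. That run cannot speak to the scaling or the pairing of these libraries. Totals of 9381855 to 10929000 counts gave the 5 genes 31 to 303 counts per library. Replicates of a time differed by 4.13 to 15.2 in chi-square per degree of freedom, so each library counted as 1.

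The 5 genes and the lists were chosen with earlier results of these data known. Named otherwise were the 3 genes of at least 5 mean CPM with the highest Pearson correlation of log2 CPM (prior count 2) per gene, up to 4 list genes with the smallest adjusted p, all tested relatives, FLI1, EWSR1 and MALAT1; 1 gene that met this rule is not reported here. Sequences were read from GENCODE 29 on GRCh38, matched by symbol. The prefixes of the duplicated families also took TBC1D31, TBC1D32 and AGAP2-AS1, none of them called. They took AGAP3, not called, and AGAP1, called lower with -0.38 (edgeR adjusted p = 0.003473). Likeness of coding exons was measured for the 5 genes only, not for the genes of the lists.

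The replicate numbers, shared in the labels by all 4 times, marked paired libraries, since within numbers 1, 2 and 3 the libraries' departures from their time's mean had correlations of 0.369 to 0.494, 0.263 to 0.336 and 0.575 to 0.649. Alternatives were library totals, ribosomal protein scaling, no filter, the replicate block, DESeq2 1.42.0, counts plus 1 in the ratios, Spearman's rho, and leaving out each library or replicate number.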

Additional observations from a re-analysis of the deposited data

How the results depend on the processing

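For the 5 genes, 300 log2 changes against 0 h were recomputed over the alternatives, and 297 were above 0. The 3 below 0 were all ANKRD36B at 1 h, at -0.07 without 0 h replicate 3, -0.21 without 1 h replicate 3 and -0.34 without replicate 3 at every time, and the highest was 0.34 without replicate 2. Of the 300, 7 moved by more than 1 SD. Without single libraries or replicate numbers the 4 h log2 change of ANKRD36 ran from 1.66 to 2.24, that of ANKRD36B from 1.23 to 1.54, ANKRD36C 1.54 to 2.07, GOLGA8A 1.08 to 1.18 and GOLGA8B 0.81 to 1.05. The number of genes called higher at 4 h, 2975, was 1347 with library totals and 157 with ribosomal protein scaling, with 3961 and 5824 lower against 3148. It ran from 1440 (without replicate 2) to 2955 when libraries were left out, and the lower count from 2279 to 3309. With the replicate block, which follows the pairing, 4444 genes were called higher and 3934 lower; DESeq2 gave 2587 and 3136. Genes of the list of golgins and Golgi tethers called higher numbered 2 without the block, 4 with it and 1 to 3 when libraries were left out. With library totals or ribosomal protein scaling they numbered 0, and with the latter 14 were lower. Other ANKRD genes called higher numbered 1 with library totals, 1 with ribosomal protein scaling (18 lower), 3 with DESeq2, and 1 to 5 when libraries were left out, the lowest without replicate 1 or 2. Without replicate 2, other duplicated families had 6 higher and 3 lower, and other ANKRD genes 7 lower. Transcripts described as nuclear or intron-retaining had 13 lower with ribosomal protein scaling, 8 (and 13 higher) with the replicate block and 3 without replicate 1 or 2. The median of the duplicated families was 0.14 with library totals, 0.17 without a filter and 0.12 to 0.30 when libraries were left out, and with the replicate block 18 of them were called higher and 8 lower. Counts plus 1 changed no ratio by more than its SD. The cause of these moves was not tested. Counting error was largest for ANKRD36B, with 31 to 139 counts per library.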
